A study of Mus musculus with 12 samples.

Results

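The genes of fatty acid activation and oxidation code for the proteins that carry fatty acids into cells, join them to coenzyme A, take them into mitochondria or peroxisomes and break them down. A list of 34 such genes was examined, and every one of them had at least 1 probe on the mouse arrays, of 20886 gene symbols with a named probe. The members were listed by name and found through the transcript accession of each probe. Of the 34 genes, 32 passed the filter on dim probes and were tested among 13925 genes. Ehhadh, the L-specific bifunctional enzyme of peroxisomes, was not well above background on any array, and Crat, carnitine acetyltransferase, was above it on 2 arrays at 48 h, so neither has a measured ratio.

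The study asked how macrophages and the hormones cortisol and serotonin alter gene expression in pre-adipocytes. The cells were 3T3L-1, an embryonic mouse fibroblast line that can be differentiated into adipocytes but was used here as pre-adipocytes, and the macrophages were the mouse line Raw264.7, held above them in an insert whose membrane lets soluble factors pass. Each of the 12 arrays compared co-cultured 3T3L-1 RNA, labelled with Cy5, with RNA of 3T3L-1 grown alone, labelled with Cy3, at the same time and under the same treatment. There was 1 array for each of 4 treatments at 6, 24 and 48 h: no hormone (NT), serotonin at 100 µM (S), cortisol at 100 µM (C) and both hormones at 100 µM each (CS). The labels name no transgene or other genetic change in either line. The medium, with fresh hormone, was replaced at 24 h. Each line is a single established line, and nothing in the labels says how many cultures lay behind an array, so the 4 treatments of a time served as its replicates, and the p-values reflect no more than the residual spread among those arrays. The arrays of a time shared 1 slide that held no other time, so time and slide cannot be told apart, and the dyes were never swapped, so any dye preference of a probe is in every ratio. In RNA from whole wells, fewer cells of a kind and less RNA per cell cannot be told apart.

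Fatty acids taken up by the Slc27a transport proteins are activated to acyl-CoA by synthetases, after which the carnitine shuttle (Cpt1, Slc25a20 and Cpt2) moves the acyl chain into the mitochondrion. There, acyl-CoA dehydrogenases, a hydratase, a hydroxyacyl-CoA dehydrogenase and a thiolase shorten the chain in repeated cycles, and electron transfer flavoprotein passes electrons from the dehydrogenases to the respiratory chain. Peroxisomes run a parallel series that starts with acyl-CoA oxidases and handles very long and branched chains, and in many tissues genes of both series are targets of the nuclear receptor PPARα.

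Between 18443 and 22824 probes were well above background per channel. The SD of the log2 ratios over the tested genes of an array, each by its brightest probe, was 0.332 to 0.437 at 6 h, 0.381 to 0.447 at 24 h and 0.664 to 0.697 at 48 h. Among markers of other cells, 14 of 21 macrophage genes were tested, of which 6 were higher and 0 lower in co-cultured cells at 6 h, 2 and 0 at 24 h, and 5 and 2 at 48 h. Their summed intensity was 26200 to 29000 in co-cultured cells and 18600 to 22900 in cells grown alone at 6 h, 24100 to 27900 and 20500 to 30900 at 24 h, and 25200 to 31300 and 27200 to 31800 at 48 h. Of 20 macrophage genes with a probe, 9 were above background on all 12 arrays in both channels. Of these, Csf1r (1.11), Itgam (0.78), Clec4d (1.84) and Aif1 (0.74) were called higher at 48 h. Cd53 (-0.68) and Arhgdib (-0.62) were called lower, and Cd14 (0.07), Itgb2 (-0.16) and Mpeg1 (0.25) were not called. Of the other defining markers, C1qa was above background on 0 arrays in either channel, and Ptprc and Spi1 on 1 array each per channel. Of 12 fibroblast and pre-adipocyte markers, 11 were above background on every array in both channels, while of 11 adipocyte markers 3 were (Fabp4, Lpl and Pparg) and Adipoq was above it on none. The summed level of 7 adipocyte markers was lower in co-cultured cells on every array. The ratio of the sums was 0.769 to 0.926 at 6 h, 0.493 to 0.992 at 24 h and 0.36 to 0.561 at 48 h. The 48 h sum holds the called falls of Lpl (-2.37) and Fabp4 (-0.79). At that time the median of the 7 was -0.16, 3 of 7 lay above 0 and Slc2a4 was called higher (0.76). Lpl was also called lower at 6 h (-1.01) and 24 h (-1.66). The part of the macrophage and adipocyte markers in the members' ratios was not tested. The glucocorticoid target Zbtb16 was higher than in NT of the same time in the Cy3 RNA labelled S at 6 h (by 2.17 on the log2 scale) and at 24 h (by 1.86), and only 0.4 higher in that labelled CS at 24 h, against 2.64 to 3.11 in the other Cy3 RNA labelled with cortisol. The Cy3 RNA of these 3 arrays thus went against its hormone labels, while the Cy5 RNA did not. Every member call at 6, 24 and 48 h given below (19 in all) was also made without these 3 arrays.

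The ratio is reported as log2 of co-cultured over alone, with the standard error of limma's fit to all 12 arrays, in which the value at each time is the mean over its 4 treatments. A gene was called higher or lower where the Benjamini-Hochberg adjusted p over all genes was under 0.05 and the change was at least 1.5-fold. At 6 h, 2 of the 32 members were called higher, against 4.37% of all genes, and 0 lower, against 5.23%. In the same test, 24 h had 3 members higher, against 4.66% of genes, and 1 lower, against 3.68%. At 48 h there were 4 higher (12.5% of the members, against 14.5% of all genes) and 9 lower (28.1%, against 16.7%). At 6 and 24 h no more than 3 members were called in either direction, and at 48 h the share called higher was near the background while the share called lower was above it. The median over the 32 members was -0.08, -0.09 and -0.16 at 6, 24 and 48 h, beside -0.02, 0.00135 and -0.01 over all genes tested.

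**Figure D1:**
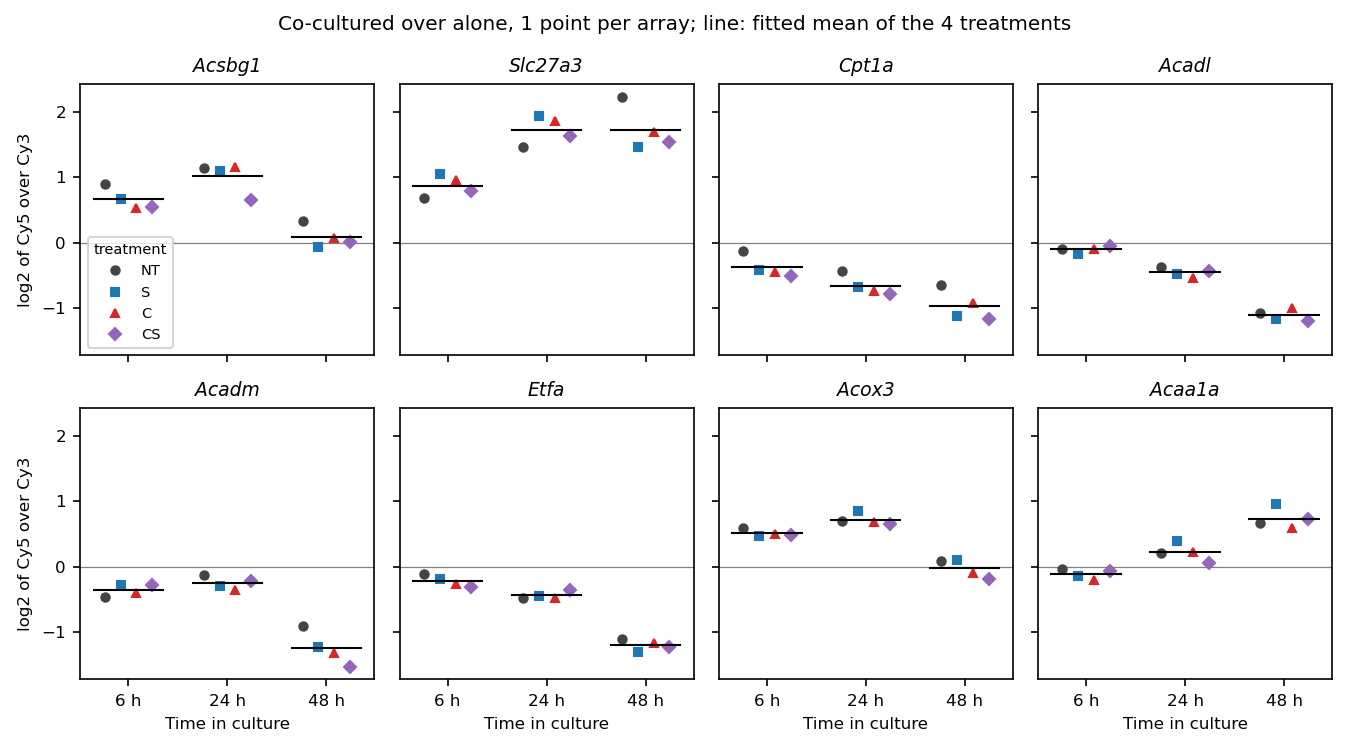
Log2 ratio of co-cultured (Cy5) over alone (Cy3) of 8 members, with 1 point per array, at 6, 24 and 48 h, marked by treatment (NT, S, C, CS), and a black line for the fitted mean of the 4 treatments. At 48 h the points of Cpt1a, Acadl, Acadm and Etfa all lie below 0 and those of Slc27a3 and Acaa1a all above, while Acsbg1 and Acox3 are highest at 24 h.

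The promoters printed here are those of the members whose fitted ratios lay farthest from 0 at 48 h, and of a pair that shares a start region. Acsbg1, which stood at 1.01 at 24 h, is not among them. The printed promoters serve as the sequence context of the values that follow. They are RefSeq sequences of GRCm38.p6 ending at the base before the annotated start, read 5′ to 3′ on the strand of the gene, with capitals marking the hexamer AGGTCA or its reverse complement TGACCT, the core letters of nuclear receptor elements.
Acadm, chr3:153944644-153944893, minus strand: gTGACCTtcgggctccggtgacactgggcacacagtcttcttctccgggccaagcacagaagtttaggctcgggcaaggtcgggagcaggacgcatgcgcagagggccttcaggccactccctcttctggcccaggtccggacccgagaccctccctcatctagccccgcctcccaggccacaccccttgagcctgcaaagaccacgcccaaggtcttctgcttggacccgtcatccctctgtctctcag
Acadl, chr1:66863310-66863559, minus strand: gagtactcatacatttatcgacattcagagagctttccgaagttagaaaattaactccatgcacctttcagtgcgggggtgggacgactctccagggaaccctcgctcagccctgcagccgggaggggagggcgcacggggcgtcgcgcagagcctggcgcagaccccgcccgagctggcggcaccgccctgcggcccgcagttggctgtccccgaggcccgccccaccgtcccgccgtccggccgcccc
Etfa, chr9:55512244-55512493, minus strand: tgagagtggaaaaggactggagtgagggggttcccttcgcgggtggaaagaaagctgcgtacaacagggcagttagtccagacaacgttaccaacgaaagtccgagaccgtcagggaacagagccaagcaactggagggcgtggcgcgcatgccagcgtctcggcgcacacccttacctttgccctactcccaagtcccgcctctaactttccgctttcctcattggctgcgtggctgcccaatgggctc
Cpt1a, chr19:3323051-3323300, plus strand: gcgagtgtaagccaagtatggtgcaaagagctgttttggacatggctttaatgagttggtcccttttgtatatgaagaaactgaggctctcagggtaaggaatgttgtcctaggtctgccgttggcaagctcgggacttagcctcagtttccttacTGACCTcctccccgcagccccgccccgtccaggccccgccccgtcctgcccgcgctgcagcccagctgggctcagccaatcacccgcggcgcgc
Slc27a3, chr3:90389939-90390188, minus strand: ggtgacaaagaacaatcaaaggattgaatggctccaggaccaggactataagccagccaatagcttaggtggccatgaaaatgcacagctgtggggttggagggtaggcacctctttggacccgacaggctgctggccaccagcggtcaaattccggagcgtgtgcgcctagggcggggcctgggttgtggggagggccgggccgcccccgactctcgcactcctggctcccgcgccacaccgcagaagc
between Hadha and Hadhb, chr5:30154981-30155252, plus strand: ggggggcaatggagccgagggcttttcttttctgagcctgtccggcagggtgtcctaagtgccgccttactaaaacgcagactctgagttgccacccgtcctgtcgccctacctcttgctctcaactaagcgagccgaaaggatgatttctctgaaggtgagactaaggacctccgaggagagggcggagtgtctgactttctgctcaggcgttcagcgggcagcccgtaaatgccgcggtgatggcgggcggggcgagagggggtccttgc
The last of these lies between the divergent starts of Hadha and Hadhb and is written on the strand of Hadhb. Windows of 250 bases before the start were found for 30 of the 34 members. The hexamer AGGTCA on either strand was in at least 1 window of 5 of these members (Acadm, Acadvl, Cpt1a, Cpt1c and Echs1), or 16.7%, against 14% of all 32851 promoters of that length. In Acadm it began 249 bases before the start, and in Cpt1a 94 bases before it. Copies of AGGTCA in tandem with 1 base between them, the arrangement named for PPAR, were in 0.0335% of promoters and in 0 members' windows. The letters GGGCGG were found for 23 members (76.7%, against 32.7% of promoters), CCAAT for 15 (50%, against 33.8%) and CACGTG for 1, Slc27a1, against 6.02%. These are matches of letters and show no binding, and a match missing from these windows says nothing of a factor acting elsewhere.

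Among the members, all 3 transporters had fitted ratios above 0 at each time, and they held the highest ratio of any member. Slc27a3 codes for a member of the fatty acid transport protein family whose proteins also activate very long chains. Its log2 ratios were 0.69, 1.06, 0.96 and 0.79 for NT, S, C and CS at 6 h, then 1.46, 1.93, 1.86 and 1.63 at 24 h, and 2.23, 1.46, 1.69 and 1.53 at 48 h. Every array showed a higher level in co-cultured cells, and all 6 h values lay below all later ones, whereas the 24 and 48 h values overlapped. The fitted ratios were 0.87 ± 0.131 at 6 h (1.83-fold, limma adjusted p = 0.000322), 1.72 ± 0.131 at 24 h (3.3-fold, adjusted p = 9.75e-06) and 1.73 ± 0.131 at 48 h (3.31-fold, adjusted p = 4.82e-07). Slc27a4, a transporter and synthetase for very long chains, gave 1.04, 0.71, 0.62 and 0.69 at 48 h. All 4 arrays were past 1.5-fold, with NT the highest, and the fit gave 0.77 ± 0.0656 (adjusted p = 1.21e-06 by limma), after 0.07 at 6 h and 0.29 at 24 h, neither of which was called. With median centring in place of loess Slc27a4 came to 0.57 at 48 h and lost its call, while processed signals without loess gave 1.34. In cells grown alone its probe was well above background on 3 of 4 arrays at 24 h. Slc27a1, which transports long-chain fatty acids in muscle and fat, reached 0.40 ± 0.0662 at 48 h (adjusted p = 0.000233), under 1.5-fold. Outside the list, Slc27a6 of the same family was at -0.37 and -0.45 at 6 and 24 h and was called lower at 48 h (-0.65). Slc27a5 (0.53), Slc27a2 (0.08) and Cd36 (-0.31), other genes of activation and transport, were not called at 48 h.

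The 5 acyl-CoA synthetases did not move as one. Acsbg1, a synthetase of the bubblegum family, was higher in co-cultured cells early. Its log2 ratios were 0.91, 0.67, 0.53 and 0.55 at 6 h for NT, S, C and CS, 1.15, 1.10, 1.15 and 0.65 at 24 h, and 0.34, -0.07, 0.08 and 0.02 at 48 h. The 48 h arrays lay below all of the earlier ones, and CS was the lowest at 24 h. The fit gave 0.66 ± 0.0717 at 6 h (adjusted p = 5.31e-05), 1.01 ± 0.0717 at 24 h (2.02-fold, adjusted p = 7.04e-06) and 0.09 at 48 h (adjusted p = 0.268), and the change from 24 to 48 h of -0.92 was itself called (limma adjusted p = 3.54e-05).

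Acsl1, the main long-chain synthetase of fat cells, moved the other way. Its ratios at 48 h were -0.96, -0.88, -0.93 and -0.65 for NT, S, C and CS, all past 1.5-fold, and the fitted values were -0.14, -0.41 and -0.86 ± 0.0638 at 6, 24 and 48 h, of which the last was called (adjusted p = 4.3e-07, limma). A second, dimmer probe of Acsl1 gave -0.47 at 48 h. Acsl4, which prefers arachidonic acid, was called higher at 48 h (0.68 ± 0.0704, limma adjusted p = 5.63e-06), with arrays from 0.51 to 0.81, and stood at 0.50 at 6 h and 0.24 at 24 h without a call. When spots flagged as background outliers were also left out, Acsl4 came to 0.55 at 48 h and was no longer called. Acsl3, a synthetase of the endoplasmic reticulum and lipid droplets, varied most among the 6 h arrays, from -0.28 in NT to 0.69 in CS, and its 0.51 ± 0.112 at 48 h stayed under 1.5-fold, as did Acsl5 at -0.45 ± 0.0558. The ratio of Acsl3 rose by 0.76 from 24 to 48 h (adjusted p = 0.00208), a call lost with median centring (0.0951) and without the 3 arrays of doubtful label.

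The carnitine shuttle was split. Cpt1a, the outer membrane carnitine palmitoyltransferase that controls entry of long chains, had ratios of -0.13, -0.42, -0.44 and -0.51 at 6 h for NT, S, C and CS, -0.43, -0.67, -0.74 and -0.78 at 24 h, and -0.64, -1.12, -0.92 and -1.17 at 48 h. All 12 arrays were below 0 and NT lay nearest to 0 at each time. Cpt1a was called lower at 24 h (-0.65 ± 0.0578, 1.57-fold, limma adjusted p = 1.89e-05) and at 48 h (-0.96 ± 0.0578, 1.94-fold, adjusted p = 1.04e-07). A second probe gave -0.58 and -0.46, each under 1.5-fold, and did not lie lower at 48 h than at 24 h, so the probes differed on the later course. With median centring in place of loess, the 24 h ratio of Cpt1a was -0.10 and the call was lost, while that of 48 h was kept. Slc25a20, the carrier that exchanges acylcarnitine for carnitine across the inner membrane, instead stood at 0.51 ± 0.0503 at 48 h (adjusted p = 3.44e-06), with arrays from 0.46 to 0.61, just under 1.5-fold. Its change from 24 to 48 h, 0.59, was called (adjusted p = 6.45e-05) but not in 9 of 27 alternatives, 4 of which left out S or CS at 24 or 48 h, and came to -0.079 with median centring. Cpt2, which rebuilds acyl-CoA inside, was at -0.40 ± 0.0709 at 48 h, and Cpt1c, a form best known from the brain, ranged from -0.06 to 0.26 over the 3 times, and neither was called.

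The acyl-CoA dehydrogenases take the first step of each cycle and differ in the chain length they accept. Acadl, for long chains, had ratios of -0.09, -0.17, -0.09 and -0.05 at 6 h, -0.36, -0.47, -0.54 and -0.43 at 24 h, and -1.06, -1.17, -0.998 and -1.19 at 48 h for NT, S, C and CS. The 3 times did not overlap. The 48 h fit of -1.10 ± 0.0553 (2.15-fold lower, limma adjusted p = 3.71e-08) followed -0.10 at 6 h (adjusted p = 0.155) and -0.45 at 24 h, and the step from 24 to 48 h, -0.65, was called (adjusted p = 5.95e-05) except with scaling between arrays (-0.52) or a 2-fold threshold.

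Acadm, for medium chains, gave -0.46, -0.28, -0.40 and -0.28 at 6 h, -0.13, -0.30, -0.36 and -0.22 at 24 h, and -0.90, -1.23, -1.31 and -1.53 at 48 h in the same order. The 48 h arrays were all below the earlier ones, with NT the nearest to 0 and CS the farthest. Its 48 h ratio of -1.24 ± 0.0826 was the lowest of any member (2.37-fold, adjusted p = 1.98e-07), and it changed by -0.99 from 24 to 48 h (limma adjusted p = 5.37e-05). Acadvl, the very long-chain enzyme of the inner membrane, followed another course, at -0.48 ± 0.0517 at 6 h and -0.52 at 24 h but 0.11 at 48 h (adjusted p = 0.0793). None of these was called, and the rise of 0.63 from 24 to 48 h was (adjusted p = 4.82e-05), although it came to -0.23 with median centring and also lost its call with the deposited ratios, the processed signals and without CS at 24 h. Acads, for short chains, lay between -0.25 and -0.11.

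Electron transfer flavoprotein is a dimer of the Etfa and Etfb products. Etfa had ratios of -0.11, -0.18, -0.27 and -0.31 at 6 h for NT, S, C and CS, -0.47, -0.45, -0.47 and -0.36 at 24 h, and -1.10, -1.30, -1.16 and -1.23 at 48 h. The times did not overlap, and the 4 treatments of 48 h lay close together. At 48 h the fit gave -1.20 ± 0.0589 (2.3-fold lower, adjusted p = 3.46e-08), with a change of -0.76 from 24 h (limma adjusted p = 3.48e-05), but a second, dimmer probe gave -0.52 at 24 h and -0.51 at 48 h, and with the mean of both probes the change from 24 to 48 h was -0.38 and lost its call. Etfb had fitted ratios of -0.45 ± 0.0618, -0.46 ± 0.0898 and -0.50 ± 0.0618 at 6, 24 and 48 h, under 1.5-fold each time. The 24 h value of Etfb rests on the S and C arrays, as the spots of NT and CS were outliers. Etfdh, which hands the electrons on to ubiquinone, ran from -0.21 to 0.08 and was not called.

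Of the enzymes after the dehydrogenases, Hadha and Hadhb code for the subunits of the trifunctional protein and start from the same intergenic region printed above. Hadhb, which carries the thiolase, was called lower at 48 h at -0.74 ± 0.0638 (limma adjusted p = 1.25e-06), with arrays from -0.94 in CS to -0.66 in NT. Hadha was at -0.44 ± 0.0503 (adjusted p = 1.16e-05), with arrays from -0.48 to -0.37, under 1.5-fold. At 6 h Hadha stood at 0.02 and Hadhb at -0.36, so the ratios of the pair were apart at each time, and that difference was not tested. Echs1, the short-chain enoyl-CoA hydratase, was called lower at 48 h at -0.60 ± 0.0563 (1.52-fold, limma adjusted p = 2.4e-06), but only 2 of 4 arrays were past 1.5-fold and the call was lost in 7 alternatives, among them those without NT or without CS at 48 h. Hadh, the short-chain hydroxyacyl-CoA dehydrogenase, ranged from -0.15 to 0.13 over the 12 arrays, and Acaa2, the mitochondrial thiolase, reached -0.37 ± 0.0599 at 48 h without a call.

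The auxiliary enzymes prepare unsaturated chains. Eci1, the mitochondrial enoyl-CoA isomerase, was called lower at 48 h at -0.73 ± 0.0708 (limma adjusted p = 3.28e-06), with arrays from -0.85 to -0.60, after -0.28 and -0.54 at 6 and 24 h. Decr1, 2,4-dienoyl-CoA reductase, was at -0.55 ± 0.0546, -0.50 and -0.48 and was called at no time. A second probe of Decr1 gave -0.03, -0.08 and -0.80, so its probes differed on the course. Eci2, an isomerase found in both mitochondria and peroxisomes, stayed between -0.11 and 0.05.

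Peroxisomal genes moved in opposite directions. Acox3, the oxidase of branched chains, had ratios of 0.59, 0.47, 0.50 and 0.48 at 6 h for NT, S, C and CS, 0.69, 0.85, 0.68 and 0.65 at 24 h, and 0.08, 0.09, -0.11 and -0.18 at 48 h. Each time formed a range of its own. It was called higher at 24 h at 0.72 ± 0.0536 (1.65-fold, limma adjusted p = 8.79e-06), and its change of -0.75 from 24 to 48 h was called as well (adjusted p = 2.14e-05). A second probe of Acox3 gave 0.31 at 24 h and 0.25 at 48 h, and with the mean of the probes the 24 h value was 0.52 and the change from 24 to 48 h was -0.41, and both calls were lost.

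Acaa1a, the peroxisomal thiolase, ran the reverse way, with -0.03, -0.14, -0.21 and -0.06 at 6 h, 0.21, 0.39, 0.22 and 0.05 at 24 h, and 0.66, 0.95, 0.59 and 0.73 at 48 h. The 3 times did not overlap. It was called higher at 48 h (0.73 ± 0.0617, 1.66-fold, adjusted p = 1.08e-06 by limma). Hsd17b4, the D-specific bifunctional enzyme between oxidase and thiolase, was close to 0 at 6 and 24 h (0.05 and -0.03) and was called lower at 48 h, at -0.68 ± 0.049 (adjusted p = 3.34e-07), where its arrays lay between -0.72 and -0.65, and its change from 24 h was -0.66 (limma adjusted p = 2.77e-05), which scaling between arrays brought just under 1.5-fold. Outside both series, Acot7, a cytosolic thioesterase that releases fatty acids from coenzyme A, stayed between -0.07 and 0.04, and Ppara, the receptor gene, between -0.01 and 0.06, with the 48 h value from 3 arrays as the C spot was an outlier.

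**Figure D2:**
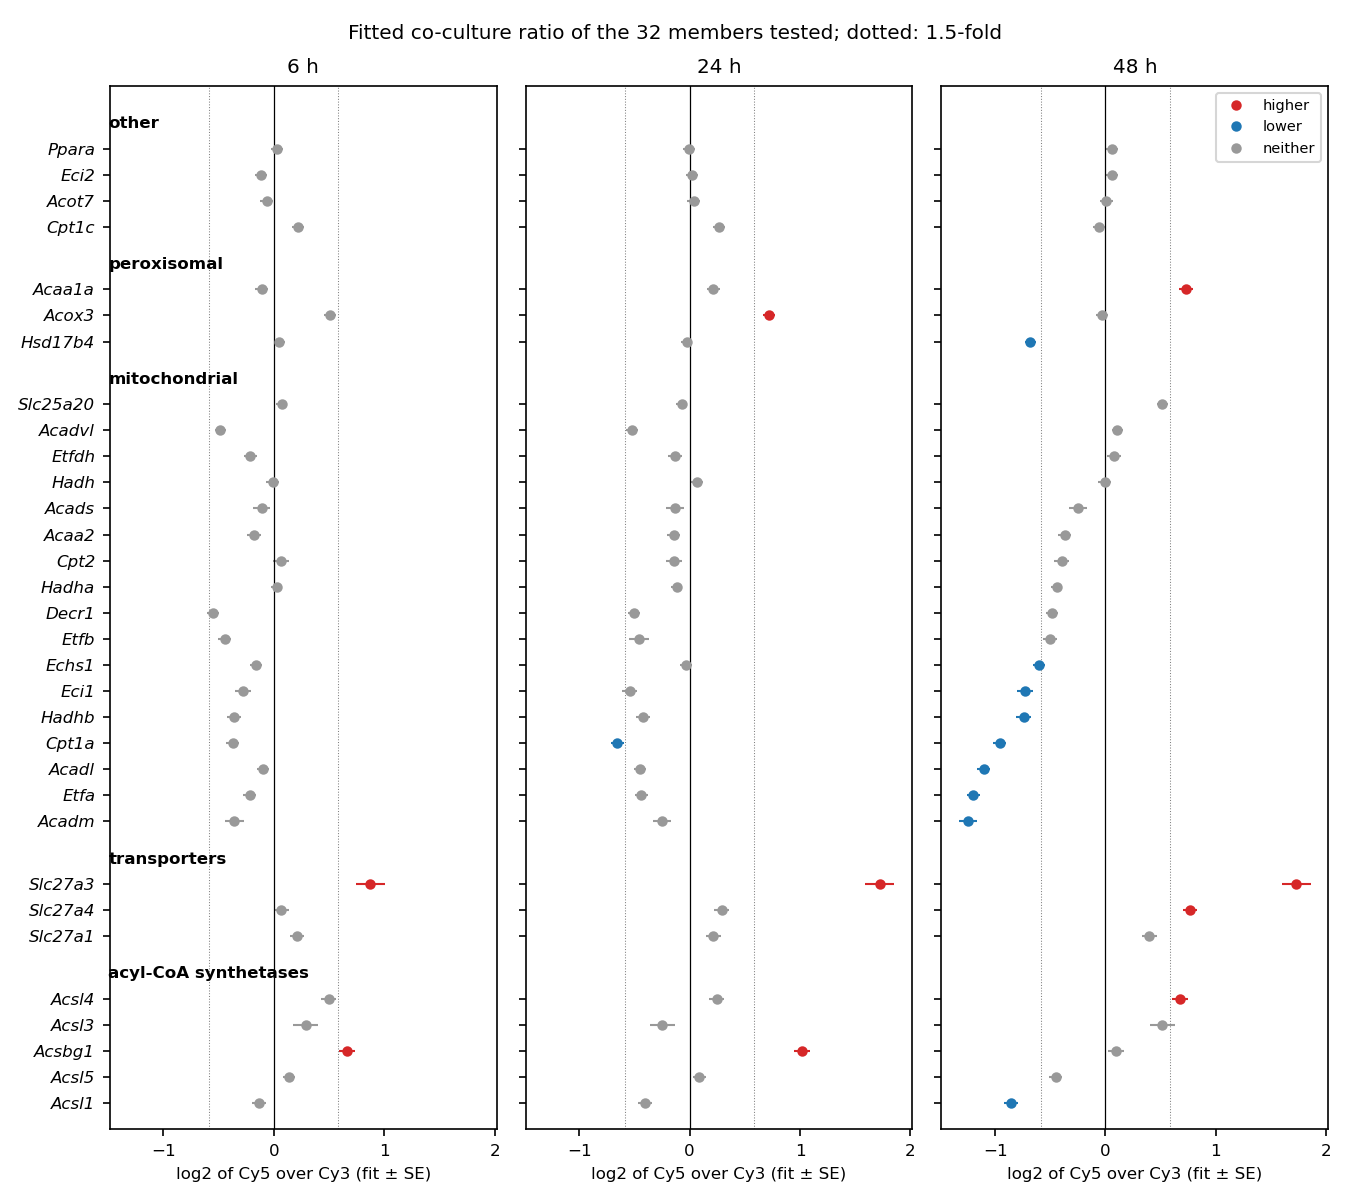
Fitted log2 ratio of co-cultured over alone (points) with its standard error (bars) for the 32 tested members at 6, 24 and 48 h, grouped by role, in red where called higher, blue where called lower and grey otherwise. Dotted lines mark 1.5-fold, and at 48 h Acadm (-1.24), Etfa (-1.20) and Acadl (-1.10) lie farthest below 0 and Slc27a3 (1.73) farthest above.

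Set side by side, the 17 mitochondrial members had fitted medians of -0.21, -0.25 and -0.48 at 6, 24 and 48 h, with 14, 16 and 14 of 17 below 0 and 0, 1 and 7 called lower (against 5.23%, 3.68% and 16.7% of all genes), but with median centring in place of loess these medians were 0.40, 0.50 and -0.60. Cpt1c, Eci2, Acot7 and Ppara were counted in no group. The 7 mitochondrial members called at 48 h were Cpt1a, Acadl, Acadm, Hadhb, Eci1, Etfa and Echs1. The medians per array at 48 h ran from -0.56 in CS to -0.43 in NT. The 3 tested peroxisomal members had medians of 0.05, 0.22 and -0.03, where the last ran from -0.06 to 0.11 over the other alternatives and was above 0 in 6 of them, and all became 0.76, 1.10 and -0.43 with median centring, and at 48 h 1 was called higher and 1 lower. The transporters had medians of 0.21, 0.29 and 0.77, of which those of 24 and 48 h were the values of Slc27a4. They were above 0 also with median centring (0.32, 0.52 and 0.58), and reached up to 0.72 and 1.34 at 24 and 48 h in the other alternatives. At 48 h, 2 of 3 were called higher (against 14.5% of all genes). The synthetases had 0.29, 0.09 and 0.09, or 0.55, 0.61 and -0.23 with median centring, with 1 of 5 called higher and 1 lower at 48 h. These are descriptions of small groups, and no test between groups was made.

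Median centring also moved the median of all genes, to 0.23, 0.39 and -0.15 at 6, 24 and 48 h. Relative to those values, the mitochondrial median was 0.17, 0.11 and -0.45 at the 3 times, beside -0.20, -0.25 and -0.47 with loess, so with median centring the mitochondrial ratios of 6 and 24 h changed sign and those of 48 h did not. This was the only one of 27 alternatives in which the mitochondrial medians of 6 and 24 h lay above 0, and in the processed signals without loess they were -0.16 and -0.28. Under median centring 12 members were called higher and 0 lower at 6 h, 16 and 0 at 24 h, and 3 and 12 at 48 h, while over all genes 3489 were higher and 225 lower at 6 h, 4626 and 107 at 24 h, and 1588 and 3626 at 48 h.

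**Figure D3:**
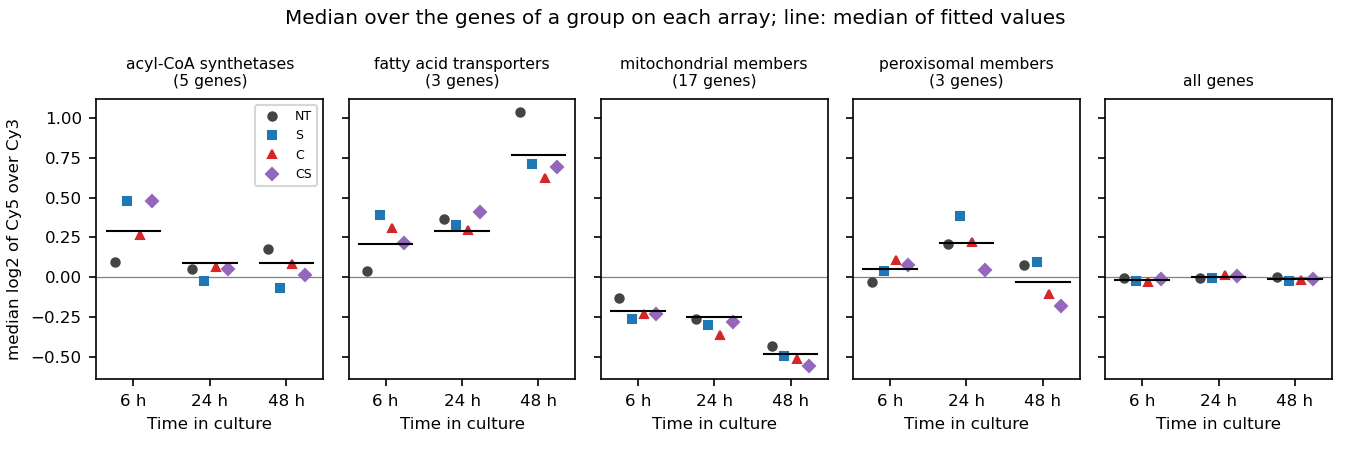
Median log2 ratio of co-cultured over alone over the genes of a group on each array (points, marked by treatment) at 6, 24 and 48 h with loess normalization, with black lines for the median of the fitted values, for synthetases, transporters, mitochondrial and peroxisomal members and all genes tested. The mitochondrial points lie between -0.26 and -0.13 at 6 h and between -0.56 and -0.43 at 48 h, although with median centring in place of loess the fitted mitochondrial medians of 6 and 24 h were above 0 (0.40 and 0.50).

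The question of when the ratios changed was addressed by the differences between times. From 6 to 24 h, 1 member was called higher (against 1.68% of genes) and 0 lower (0.661%). This was Slc27a3, with 0.85 (limma adjusted p = 0.0226), and the call was lost in 11 of 27 alternatives, which included leaving out any 1 array of 6 h or the S, C or CS array of 24 h, with values from 0.75 to 0.99 over all alternatives. From 24 to 48 h, 3 members were called higher (against 9.32% of genes), namely Acsl3, Acadvl and Slc25a20. Another 6 were called lower, or 18.8% of members against 11.6% of genes, namely Acadm, Acsbg1, Etfa, Acox3, Hsd17b4 and Acadl.

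Each channel was then examined alone to see which of the 2 cell populations had moved, on the log2 intensity scale, where levels of different probes cannot be compared. In co-cultured cells 2 members rose from 6 to 24 h (against 5.06% of genes) and 0 fell (3.77%), and in cells grown alone 1 rose (5.28%) and 1 fell (5.92%). From 6 to 48 h, 3 rose (14.2% of genes) and 2 fell (14.3%) in co-cultured cells, and 4 rose (7.51%) and 0 fell (6.13%) in cells grown alone. For Acadl, the level in co-cultured cells went from 12.49 ± 0.122 (SD, n = 4) at 6 h to 12.21 ± 0.219 at 48 h, a change of -0.28 (limma adjusted p = 0.0609). In cells grown alone it went from 12.59 ± 0.16 to 13.32 ± 0.248, and this rise of 0.73 was called (adjusted p = 0.00295 by limma), but not without CS at 48 h (0.56). Acadm showed the reverse, as it fell by 0.79 in co-cultured cells (adjusted p = 1.16e-05) and changed by 0.10 in cells grown alone (adjusted p = 0.552).

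Etfa moved in both, by -0.44 in co-cultured cells (adjusted p = 0.000102) and 0.54 in cells grown alone (adjusted p = 0.000712), each under 1.5-fold. Acsl1 rose by 0.65 in cells grown alone (limma adjusted p = 0.0015, with 0.54 and no call without CS at 48 h) and changed by -0.08 in co-cultured cells. For Slc27a3 the rise of the ratio from 6 to 24 h came with a fall of 1.05 on the log2 scale in cells grown alone (adjusted p = 0.000442), from 11.56 ± 0.27 to 10.51 ± 0.184 (SD, n = 4), while co-cultured cells went from 12.43 ± 0.187 to 12.23 ± 0.138. At 48 h it stood at 12.97 ± 0.288 in co-cultured cells and 11.24 ± 0.179 in cells grown alone.

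Cpt2 and Acsl3 rose in both channels. Cpt2 rose from 6 to 24 h by 0.98 in co-cultured cells (adjusted p = 0.00024) and by 1.19 in cells grown alone (limma adjusted p = 0.000874), and was still higher at 48 h, by 0.59 and 1.05, where its ratio had changed by -0.46 from 6 h (adjusted p = 0.00245, under 1.5-fold). The rise of 0.59 was lost in 5 of 16 alternatives, namely without NT, S or C at 6 h, S at 48 h or the 3 arrays of doubtful label, with values from 0.50 to 0.70. Acsl3 rose from 6 to 48 h by 1.41 and 1.18 (adjusted p = 0.000161 and 0.0055). In co-cultured cells only, Cpt1c passed the test from 6 to 24 h (0.61, lost without NT at 6 or 24 h), and Slc25a20 (0.79) and Acsl5 (-0.72) did so from 6 to 48 h, which by itself does not show that the channels differ. As slide and time coincide, a change of level over time may hold a slide effect, and its part was not tested.

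**Figure D4:**
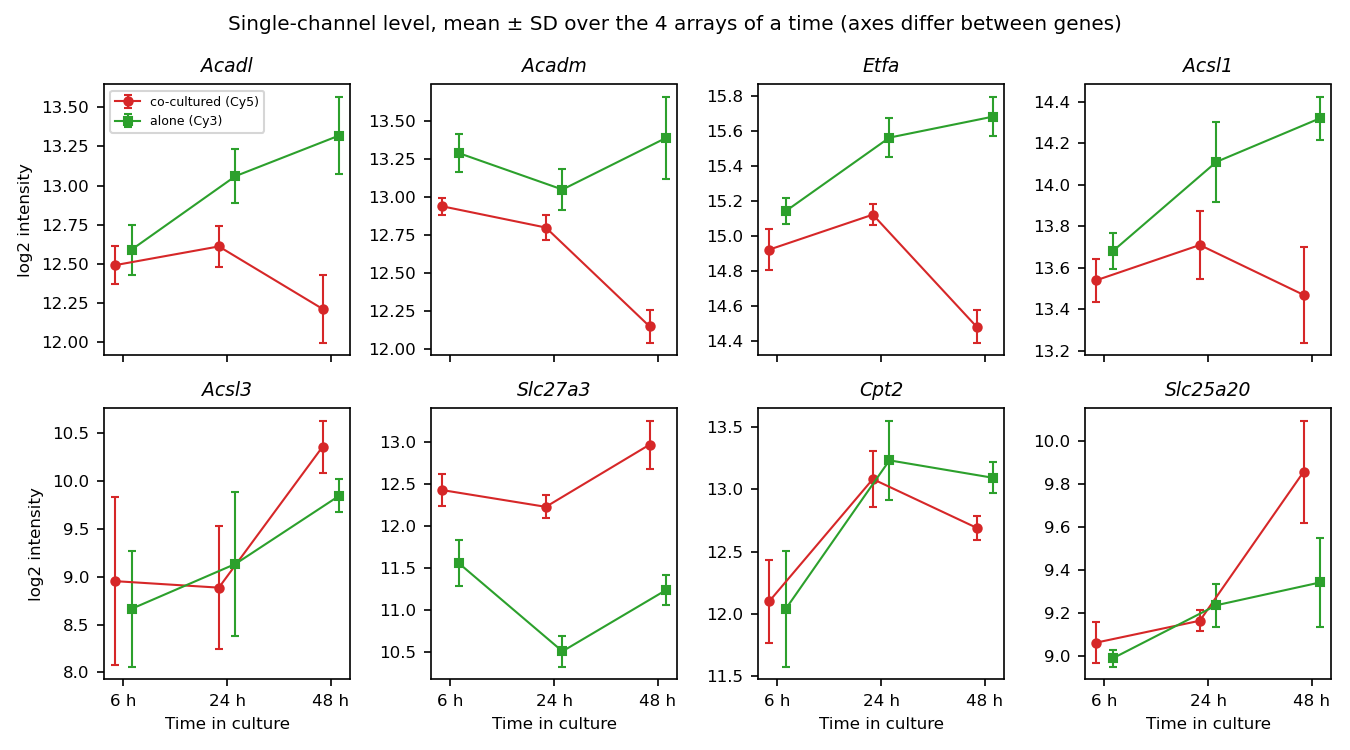
Log2 intensity of 8 members in co-cultured cells (Cy5, red circles) and in cells grown alone (Cy3, green squares) at 6, 24 and 48 h, as the mean with its SD over the 4 arrays of a time, on an axis of its own for each gene. The channels part over time for Acadl, where the mean of cells grown alone goes from 12.59 to 13.32, and for Acadm, where that of co-cultured cells goes from 12.94 to 12.15.

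The hormones left the members' ratios without a call. In limma's test against NT over the 3 times, 0 of all genes and 0 members were called for S, C or CS. An unadjusted p under 0.05 was found for 1823, 1367 and 1278 genes (13.1%, 9.82% and 9.18%), and for 2, 3 and 4 of 32 members. The lowest adjusted p of any member was 0.285, 0.434 and 0.4. The ratios of S at 6 and 24 h and of CS at 24 h rest on Cy3 RNA that went against its hormone label. The S and CS contrasts, with their Cpt1a estimates, carry that limit. The estimates for Cpt1a were -0.33 for S, -0.30 for C and -0.42 for CS, each below NT at 3 of 3 times, and did not pass (limma adjusted p = 0.285, 0.434 and 0.4).

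In co-cultured cells taken alone, S called 0 genes (916, or 6.58%, at an unadjusted p under 0.05, and 0 members). C called 0 members higher (against 1.11% of genes) and 1 lower (0.797%), and CS 1 higher (2.79%) and 1 lower (0.948%). The member lowered was Acsbg1, at -0.78 with C (limma adjusted p = 0.034) and -0.81 with CS (adjusted p = 0.0183). Its Cy5 levels at 48 h were 13.10, 12.53, 11.85 and 11.80 for NT, S, C and CS, at 24 h 13.34, 13.24, 12.56 and 12.56, and at 6 h 12.84, 12.91, 12.55 and 12.49. The cortisol-treated arrays were the lowest at each time, although the call for C was lost in 11 of 15 alternatives, 9 of which left out 1 array (any but NT and CS at 6 h and CS at 48 h), with values from -0.98 to -0.56. That for CS was lost without NT or CS at 24 h or CS at 48 h, with values from -1.01 to -0.59. The member raised by CS was Acsl3, by 1.35 (adjusted p = 0.0104), with Cy5 levels of 7.89 in NT and 9.81 in CS at 6 h, 8.25 and 9.74 at 24 h, and 10.06 and 10.70 at 48 h. Its NT level was the lowest and its CS level the highest of the 4 treatments at each time, and this call, like both of Acsbg1, was lost when the 3 arrays with doubtful Cy3 labels were left out, and that of Acsl3 also without CS at 24 h alone, with values from 1.08 to 1.59.

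In cells grown alone, S called 0 genes (1128 at an unadjusted p under 0.05) and no member passed for C, against 0.151% of genes higher and 0.0646% lower, or for CS, against 1.12% and 0.244%. There, 1, 4 and 5 of 32 members had an unadjusted p under 0.05 for S, C and CS, against 8.1%, 17.4% and 20.1% of genes. The lowest adjusted p of a member in limma's test was 0.603, 0.0853 and 0.114. These contrasts use the Cy3 RNA of the 3 arrays that went against their labels.

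Of 93 other genes of these pathways, 75 were tested, with medians of -0.07, -0.0047 and 0.0196 at 6, 24 and 48 h. At 6 h, 2 were called higher and 4 lower, against 4.37% and 5.23% of all genes. The counts were 1 and 3 at 24 h (against 4.66% and 3.68%), and 7 and 16 at 48 h (against 14.5% and 16.7%). At 48 h the counts of higher and lower were 0 and 2 of 10 for other activation and transport genes, 1 and 5 of 17 for other mitochondrial genes, 2 and 5 of 25 for other peroxisomal genes, 2 and 3 of 8 for thioesterases, and 2 and 1 of 15 for regulators and PPAR targets. The genes that were called and lay lowest at 48 h were Crot (-1.88), which attaches carnitine to chains shortened in peroxisomes, Acox2 (-1.72), the oxidase of bile acid intermediates, and Them4 (-1.45), a thioesterase. Highest were Pex5 (1.37), the import receptor of peroxisomes, Pdk4 (1.01), a kinase that turns pyruvate dehydrogenase off, and Acot13 (0.86), a thioesterase.

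Some genes had moved before 48 h. Acox2 was called lower at 6 h (-1.32) and 24 h (-0.77) as well, and Pdk4 was lower at those times (-1.23 and -0.82) before it was higher at 48 h. Acot1, a cytosolic thioesterase nearly identical to Acot2 and therefore uncertain, was called higher at 6 h (1.20), 24 h (0.95) and 48 h (0.70). The values of Acot2 differed, at -0.09 and 0.08 at 6 and 24 h and -0.97 at 48 h, where it was called lower. Ppard, a receptor related to Ppara, was called higher at 6 h (0.68), where Them4 was lower (-0.61), and Acot10 was lower at 24 h (-0.74). Pparg, the receptor that drives fat cell formation, stood at -0.10, -0.28 and -0.20 at 6, 24 and 48 h and was not called.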

How the data were processed

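RNA of 3T3L-1 cells, co-cultured (Cy5) or alone (Cy3), was measured on 12 dual-colour Agilent arrays. The deposited scanner files hold median spot intensity and local background per channel, processed intensity, other columns of spot flags and the log10 ratio with Cy5 as numerator. The authors extracted them with Feature Extraction, of version 10.5.1.1 per the submitters' processing notes and 10.7.3.1 per the file headers. The same log10 ratio makes up the deposited value table. The study set 1.5-fold on single ratios without a test.

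Intensities were corrected with normexp (offset 50) in limma 3.58.1 under R 4.3.3. A spot whose background exceeded 5 times the array median (58 spots) was left out, as were outlier spots and 1377 control spots. Loess was run within arrays, with Aquantile between arrays for single channels. Of 39429 probes, 27508 were named through RefSeq GRCm38.p6. At least 3 arrays had to show a probe well above background in 1 of the channels, with at least 6 arrays measured, and the brightest probe stood for its gene. Of the members, 8 had several probes. limma was fitted on all 12 arrays with additive time and treatment terms (6 residual degrees of freedom) and a mean trend. The number of arrays limits the precision. The script was tested on simulated data. The alternatives were other background corrections, normalizations, filters, thresholds and models, and each array left out in turn. Members and gene lists were chosen with earlier results of these data known. Every member was named, and of the other pathway genes up to 3 called in each direction per time. Pparg, Slc27a2, Slc27a5, Slc27a6, Cd36 and Acot2 were named in addition.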

Additional observations from a re-analysis of the deposited data

Results flagged for a closer look

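Among the 4 arrays of a time, 1 array lay apart from the other 3 by Dixon's test for 4 of 94 sets of member and time, where chance gives about 1 in 20. Acsbg1 at 24 h had a log2 ratio of 0.654 in CS, against 1.10 to 1.15 on the others. Hadha at 24 h was 0.0454 in NT, against -0.18 to -0.15. Hadhb at 48 h was -0.936 in CS, against -0.69 to -0.66. Etfa at 24 h was -0.359 in CS, against -0.47 to -0.45.

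The ratio of 10 members differed between neighbouring times by limma's contrast of the times. From 6 to 24 h the ratio of Slc27a3 changed by 0.848. From 24 to 48 h it changed by -0.654 for Acadl, -0.993 for Acadm, 0.631 for Acadvl, -0.747 for Acox3, -0.922 for Acsbg1, 0.762 for Acsl3, -0.759 for Etfa, -0.655 for Hsd17b4 and 0.587 for Slc25a20.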

How the results depend on the processing

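Of the 19 member calls at 6, 24 and 48 h, 6 were kept under every alternative (Acsbg1 and Slc27a3 at 24 h, Slc27a3, Acadl, Acadm and Etfa at 48 h), and 8 were lost with a 2-fold threshold alone. That threshold left 0 and 0 members changed from 6 to 24 and 24 to 48 h, 0 higher at 6 h, 1 higher at 48 h, and 0 and 3 lower at 24 and 48 h. Of 13922, 13921 and 13923 genes tested at 6, 24 and 48 h, it called 176, 199 and 791 higher and 131, 79 and 884 lower. No fold threshold gave 3 and 20 members changed, 7, 8 and 7 higher, and 11, 10 and 16 lower at the 3 times. Over the same genes tested, it gave 3391, 3580 and 4918 higher and 4047, 3512 and 5270 lower. Median centring without loess gave 12 and 16 higher at 6 and 24 h, 0 lower at 24 h and 23 changed from 24 to 48 h. It reversed Acaa1a (1.01), Acaa2 (0.70), Acot7 (0.86), Echs1 (0.68), Eci2 (0.83), Etfa (0.81) and Etfb (0.74) at 6 h, Acaa2 (0.77), Acadvl (0.61), Echs1 (0.91), Etfa (0.71), Etfb (0.81), Etfdh (0.75) and Hsd17b4 (0.79) at 24 h, and the changes from 24 to 48 h of Acadvl (-0.23) and Slc25a20 (-0.079). Deposited ratios, and processed signals, gave 0 changed from 6 to 24 h and 2 lower at 24 h, scaling between arrays 1 lower at 6 h, and background outlier flags, an alternative chosen after seeing the data, 2 lower at 24 h. With no filter C called 0 members in co-cultured cells. Without the 3 arrays of doubtful Cy3 label, C and CS called 0 and 0 there, and 0 changed from 6 to 24 h. With each array left out in turn, 1 to 2 members were lower at 24 h and 0 to 2 changed from 6 to 24 h, and in co-cultured cells 1 to 3 changed from 6 to 24 h, 4 to 8 from 6 to 48 h, 0 to 2 with C and 0 to 2 with CS, and in cells grown alone 2 to 5 from 6 to 48 h. The cause was not tested. Mean spot signals were not run, since the files used here hold medians, and slide could not be a block. No paired analysis was possible because each condition had 1 array. Keeping spots of high local background was also chosen after seeing the data.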
